A study of Mus musculus with 8 samples.

Results

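Toll-like receptors are the sensors through which cells of the gut wall and its immune system detect microbial products. The genes described here are Tlr1, Tlr2, Tlr3, Tlr4, Tlr5, Tlr6, Tlr7, Tlr8, Tlr9 and Tlr13. They were chosen by name, as every non-control probe whose gene name on the array is one of these, which gave 10 of the 35715 gene names and 12 of the 55681 probes. RNA from mouse ileum, the distal small intestine, was measured on 1-colour Agilent arrays, 4 from mice given doxycycline and 4 from mice given saline. All were female and of the strain Rosa26rtTA/+, Hprt Myc-Tnk1tg. This strain carries rtTA, a transcription activator that needs doxycycline, at Rosa26, and a Myc-tagged transgene for the tyrosine kinase TNK1 at the Hprt locus. One group received doxycycline intraperitoneally at 50 µg per g in 100 µl. The other was given 0.9% NaCl in 100 µl, and both were sampled at 24 hours. The saline samples carry the transgenic strain label and also a source name that calls them WT. No group received doxycycline without the transgene, so the drug and TNK1 cannot be told apart. Because Rosa26 is active in most tissues, rtTA is not restricted to a cell type by its promoter. The comparison asks what induction of TNK1 does to the gut, here for the receptors and their pathway.

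Each receptor joins a leucine-rich repeat ectodomain to a cytoplasmic TIR domain, which recruits adaptor proteins. Receptors at the cell surface bind lipoproteins, lipopolysaccharide or flagellin, while those in endosomes bind nucleic acids and need the chaperone UNC93B1 to get there and proteases to cut them into their active form. Most signal through the adaptor MyD88 to NF-kB and inflammatory cytokines, while Tlr3, and Tlr4 in part, use TRIF (Ticam1) and induce interferon. In the intestine they are expressed by macrophages, dendritic cells, B cells and, for some members, by epithelium.

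The probes that carry the results are shown first, since Tlr7 is read by 3 probes that differ in signal and Tlr13 and Tlr3 by 1 probe each. Each line gives 30 of the probe's 60 bases, 5′ to 3′ as on the probe, with the polyadenylation hexamer in capitals where the probe holds it. The base number is the probe's start in its target transcript as the files give it.
Tlr13, base 3954: gtaagtaaccccAATAAAactcattggttc
Tlr3, base 3557: agacgtttatagAATAAAagataattgctt
Tlr7, base 3878: agagttcaatgaAATAAAagcccagagaac
Tlr7, base 3595: cataaatgaaggtctgaatttttcctaaca
Tlr7, base 254: atgtaatgctgcttctgtatcttaaaaact
Tlr8, base 406: acagttttactgctggaagacaaccagtta
The hexamer AATAAA, searched on the probe strand only, lay in 4 of the 12 receptor probes (those of Tlr2, Tlr3, Tlr13 and Tlr7 at base 3878) and in 10.1% of all probes. In the array's mm9 annotation the Tlr13 probe lies at chrX:103355773-103355832 on the plus strand and the Tlr3 probe at chr8:46481729-46481788 on the minus strand. The 3 Tlr7 probes lie on the minus strand at chrX:163742863-163742922, chrX:163743146-163743205 and chrX:163747214-163747273, in the order printed above. The Tlr8 probe lies at chrX:163683356-163683415 on the minus strand. Exons and untranslated regions are not stated, because no mm9 transcript models were used here.

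Levels below are log2 processed intensity minus the array's 75th percentile, so that 0 is the 75th percentile of that array's probes. Levels of different probes are not compared. Probes entered the test if at least 4 of the 8 arrays marked them as well above background, the scanner software's flag for a spot brighter than its surroundings (here also called detected). This left 21362 genes, each represented by its brightest kept probe. Of these, 1268 were higher and 1687 lower with doxycycline at a limma adjusted p under 0.05, adjusted over all genes. The 5′-side Tnk1 probe was higher on every doxycycline array (0.34 to 0.82) than on any saline array (-2.74 to -1.91), and its mean was 0.64 ± 0.23 on the 4 doxycycline arrays and -2.15 ± 0.40 on the 4 saline arrays (SD). The 3′-side Tnk1 probe did not follow, with 1.89 to 2.42 against 2.23 to 2.83 (log2 difference -0.45, adjusted p = 0.136), while Hprt, the locus of the transgene, read 4.22 to 4.52 against -2.21 to -0.88. Among 10 ileal enterocyte genes, the bile acid binder Fabp6 (8.97 to 9.77) and the ileal bile acid transporter Slc10a2 (5.40 to 7.01) were measured on all 8 arrays. Lct was detected on 1 saline array and Apoa4 on 3, and both were detected on all 4 doxycycline arrays. Lct read 3.06 on saline 3 and -5.25 to -3.92 on the other saline arrays. Apoa4 read -4.07 on saline 4 and 1.30 to 3.69 on the other saline arrays. With doxycycline Lct read -3.66 to -2.57 and Apoa4 3.64 to 4.88, and limma called neither (adjusted p = 0.924 and 0.0977). All arrays came from 1 slide, with doxycycline in row 1 and saline in row 2, and the effect of row cannot be told apart from that of treatment. Separate animals per array are implied but not stated by the labels. The p-values therefore measure how far these samples scatter, which may be technical in part. The arrays also differed in how far down they measured. Doxycycline arrays had 30485 to 31713 probes well above background and saline arrays 22069 to 23994, and the lowest such level was -4.89 to -4.51 with doxycycline and -3.07 to -2.57 with saline. This bears on the dim receptors Tlr4, Tlr5, Tlr6, Tlr7 and Tlr8, and its part in their values was not tested.

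Of the 10 receptor genes, 8 passed the filter and were tested. Tlr13 fell with doxycycline and 0 of the 8 rose by limma (3 of the 8 had an unadjusted p under 0.05, against 31.4% of all genes tested). The share called was 12.5%, beside 13.8% of all genes tested (5.94% higher and 7.9% lower), so the receptors as a group were called about as often as any gene. Their median log2 difference was 0.31, beside 0.02 over all genes tested. It was 0.05 with normexp background, 0.25 with a common floor and 0.31 with no filter. Over the 5 receptors detected on all 8 arrays, which leaves out Tlr4, Tlr6 and Tlr7, it was -0.03.

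**Figure D1:**
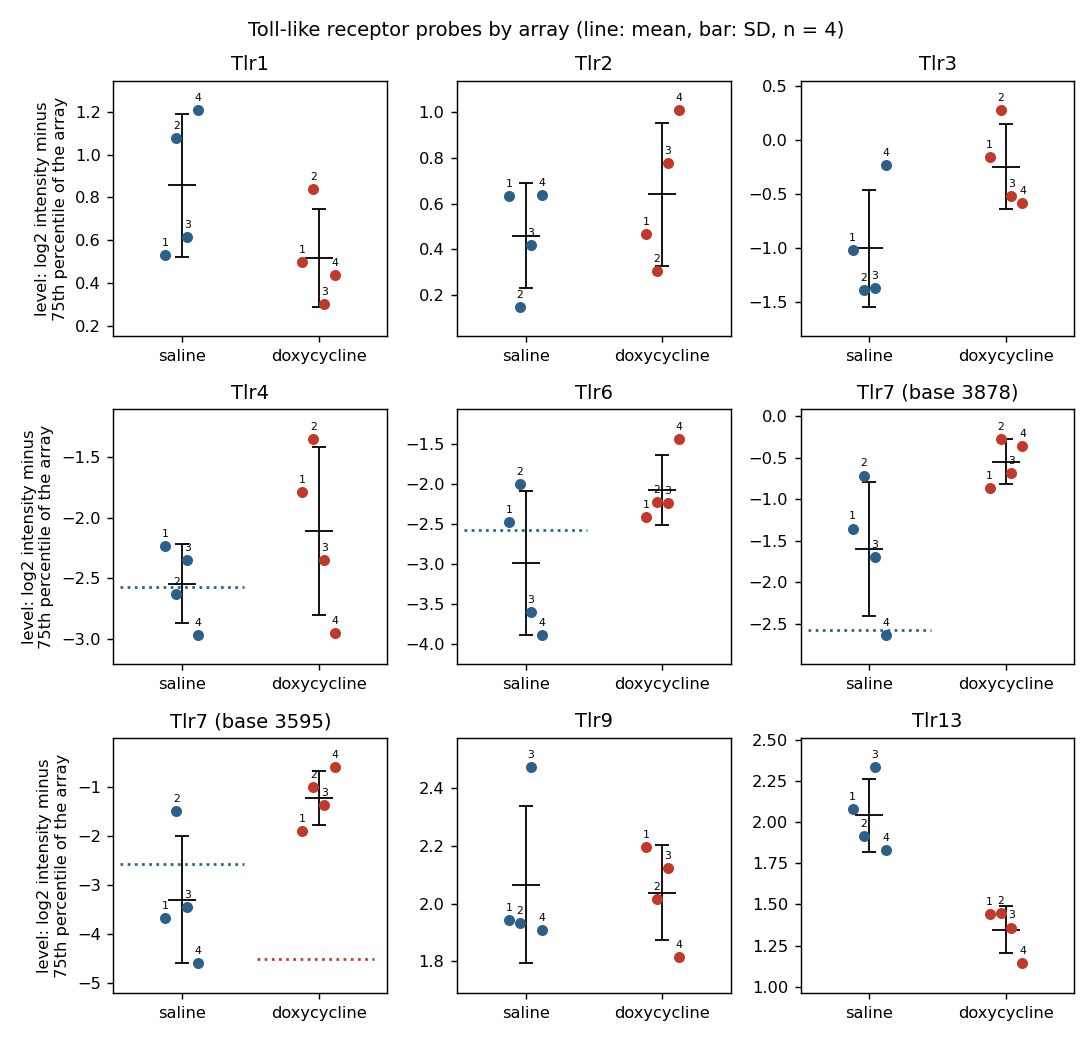
Level of each kept Toll-like receptor probe on each array (vertical axes, log2 intensity minus the array's 75th percentile, scaled separately per probe), saline in blue and doxycycline in red, with replicate numbers, mean (line) and SD (bar, n = 4). Dotted lines mark, where they fall in a panel, the highest of the group's 4 detection limits. The Tlr13 panel is the 1 without overlap between groups, with doxycycline at 1.14 to 1.45 and saline at 1.83 to 2.33.

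Tlr13 is the endosomal receptor for bacterial ribosomal RNA, present in mice. Its levels were 1.44, 1.45, 1.36 and 1.14 on doxycycline arrays 1 to 4 and 2.08, 1.92, 2.33 and 1.83 on saline arrays 1 to 4. Every doxycycline array lay below every saline array. The processed intensities were 641, 866, 894 and 662 against 1274, 1071, 1324 and 670, well above background on all 8 arrays. The group means were 1.35 ± 0.14 and 2.04 ± 0.22 (SD, n = 4 each). The log2 difference was -0.69 (SE 0.162, 95% interval -1.06 to -0.33), a level 1.62-fold lower with doxycycline. The limma adjusted p was 0.0248, and the exact two-sided permutation p was 0.0286, the smallest that 4 against 4 arrays can give. Among all genes tested with a value on every array, 21.9% had groups that did not overlap. The direction was the same under all 18 alternative settings, with log2 differences from -0.86 to -0.55. The call was lost without doxycycline 3 (-0.70, adjusted p = 0.0658), doxycycline 4 (-0.63, adjusted p = 0.0684), saline 1 (-0.68, adjusted p = 0.0757) or saline 3 (-0.60, adjusted p = 0.0778). It was also lost with the replicate number as a block (adjusted p = 0.0596). In whole tissue, fewer cells that express a gene and less RNA per cell cannot be told apart.

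Macrophages are a main site of Tlr13 expression, so their marker list is given beside it. Of 12 macrophage markers, 11 were tested, and 36.4% of these were called, beside 13.8% of all genes tested. Mrc1, the mannose receptor (2.06-fold, adjusted p = 0.00581), and the complement genes C1qb (2.26-fold, adjusted p = 0.033) and C1qc (1.80-fold, adjusted p = 0.0361) rose. Adgre1, which encodes F4/80, fell by 0.95 on the log2 scale (SE 0.222, adjusted p = 0.0253), with levels of -0.98 to -0.40 against -0.19 to 0.69. Cd163 was not well above background on any array. The summed linear level of the list was 49.0 to 84.1 with doxycycline and 27.9 to 53.1 with saline, and the groups overlapped. Dendritic cell markers were called in 0 of 5 tested by limma (0 also at an unadjusted p under 0.05), with summed levels of 4.35 to 7.99 against 3.69 to 5.56. Xcr1, a marker of cross-presenting dendritic cells, was not well above background on any array. The part of cell numbers in the Tlr13 difference was not tested.

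Among the tested genes ranked, those whose pattern over the 8 arrays was most like that of Tlr13 were Glb1, Adamts17 and TUG1. Names of clones, accessions, predicted genes, intergenic noncoding RNA probes, pseudogenes and ribosomal protein genes were left out of this ranking. The measure was the root mean square of the log2 difference after each gene's own mean was subtracted, and it was 0.091, 0.0956 and 0.0962. Glb1, the lysosomal beta-galactosidase, fell by 0.67 on the log2 scale (adjusted p = 0.0137). Adamts17, a secreted metalloprotease, fell by 0.79 (adjusted p = 0.00964), and the long noncoding RNA TUG1 fell by 0.64 (adjusted p = 0.0314). These genes were picked for their likeness, so their falls are a description.

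The promoter of Tlr13 is shown because this was the receptor that passed the adjusted p threshold in the reported setting. The line gives the 250 bases before the start of the gene, at chrX:106143025-106143274 on the plus strand of GRCm38.p6, from RefSeq, with the motif GAGGAAG in capitals.
Tlr13 promoter: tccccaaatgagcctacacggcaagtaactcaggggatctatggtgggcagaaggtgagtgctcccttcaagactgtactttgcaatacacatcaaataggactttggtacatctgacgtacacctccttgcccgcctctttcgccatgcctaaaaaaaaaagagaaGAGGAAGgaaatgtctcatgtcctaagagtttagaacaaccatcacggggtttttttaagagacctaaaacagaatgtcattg
GAGGAAG, a core found in many sites of the myeloid and B cell factor PU.1, starts 83 bases before the start of the gene. It was searched on both strands and chosen after the promoters were seen. The promoters of Tlr1 and Tlr9 also held it, and 10.6% of all 32851 promoters did. A core of the interferon-stimulated response element, GAAA repeated after any 2 bases and also searched on both strands, was found in the Tlr6 promoter among the members' and in 2.98% of all promoters. Of the 10 receptors, 8 were matched in the promoter table. A match is a description of the letters in this window.

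The other nucleic acid receptors that were measured are Tlr3, Tlr7 and Tlr9. Tlr7, an endosomal receptor for single-stranded RNA in B cells and plasmacytoid dendritic cells, was read on its brightest probe (base 3878) at -0.86, -0.28, -0.68 and -0.36 with doxycycline. The saline arrays 1 to 4 read -1.35, -0.71, -1.69 and -2.63. Saline 2 lay within the doxycycline range and the other saline arrays below it. The log2 difference of 1.05 (SE 0.367) had a 95% interval of 0.22 to 1.88 and did not pass the threshold (limma adjusted p = 0.0881, exact permutation p = 0.0571). All 4 doxycycline arrays and 3 saline arrays measured the probe well above background. It passed with normexp background (0.70, adjusted p = 0.0414), with array weights (0.93, adjusted p = 0.0325), without saline 2 (1.35, adjusted p = 0.0293) and without saline 2 and 4 (0.98, adjusted p = 0.0457).

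Of the other Tlr7 probes, 1 was kept. At base 3595 the doxycycline arrays 1 to 4 read -1.90, -1.01, -1.37 and -0.60 and the saline arrays -3.68, -1.49, -3.44 and -4.58. Saline 2 again lay within the doxycycline range, and it was the 1 saline array on which this probe was well above background. In the fit over all kept probes the log2 difference was 2.07 (SE 0.590, 95% interval 0.74 to 3.41, adjusted p = 0.0502, exact permutation p = 0.0571). This interval overlaps that of base 3878, and with 3 saline arrays below detection the size is not exact. The probe at base 254 was not well above background on any array. Its sequence, shown above, is the most 5′ of the 3, and its levels lay near those of probes that were never detected (-7.14 to -6.82 with doxycycline and -5.22 to -4.77 with saline).

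Within each group the summed B cell and macrophage markers ranked the arrays alike, while the groups overlapped for both lists. The summed linear level of the B cell list was 26.5, 49.9, 38.1 and 86.3 on doxycycline arrays 1 to 4. It was 8.74, 90.1, 6.10 and 5.89 on saline arrays 1 to 4. The macrophage sums were 49.0, 65.6, 62.0 and 84.1 with doxycycline and 52.0, 53.1, 42.6 and 27.9 with saline, each for arrays 1 to 4. Saline 2 was the highest of the 8 for the B cell, plasmacytoid dendritic cell and T cell lists (for T cells 42.57, against 42.49 on doxycycline 4). It was the highest saline array for the macrophage list, for both kept Tlr7 probes and for Tlr6, while Tlr9 was highest on saline 3. Of 10 B cell markers, all tested, 0 were called by limma (2 had an unadjusted p under 0.05), with a median log2 difference of 1.46. Plasmacytoid dendritic cell markers were called in 0 of 6 (0 also at an unadjusted p under 0.05), with summed levels of 66.3 to 85.3 against 71.9 to 90.1. Most of this sum came from Siglech, so it says little about the other markers. Spib, on the same list, read 3.76 on saline 2 and 0.38 to 1.19 on the other saline arrays. The part of B cell, macrophage or other cell content in the Tlr7 values was not tested.

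Tlr3, the endosomal receptor for double-stranded RNA, which intestinal epithelium expresses, read -0.15, 0.27, -0.52 and -0.58 with doxycycline and -1.02, -1.39, -1.36 and -0.23 with saline. Saline 4 lay within the doxycycline range and the other 3 saline arrays below it. The log2 difference was 0.75 (SE 0.299, 95% interval 0.08 to 1.43), with a limma adjusted p of 0.124 and an exact permutation p of 0.0857. It passed the threshold without saline 4 (1.01, adjusted p = 0.0309) and with array weights (0.86, adjusted p = 0.0258). Tlr9, the receptor for unmethylated CpG DNA, read 2.20, 2.02, 2.13 and 1.82 with doxycycline and 1.94, 1.93, 2.47 and 1.91 with saline. The groups overlapped, and the log2 difference was -0.03 (SE 0.178, 95% interval -0.43 to 0.38, adjusted p = 0.938). Its sign turned under 4 alternatives, with normexp and quantile normalization among them.

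**Figure D2:**
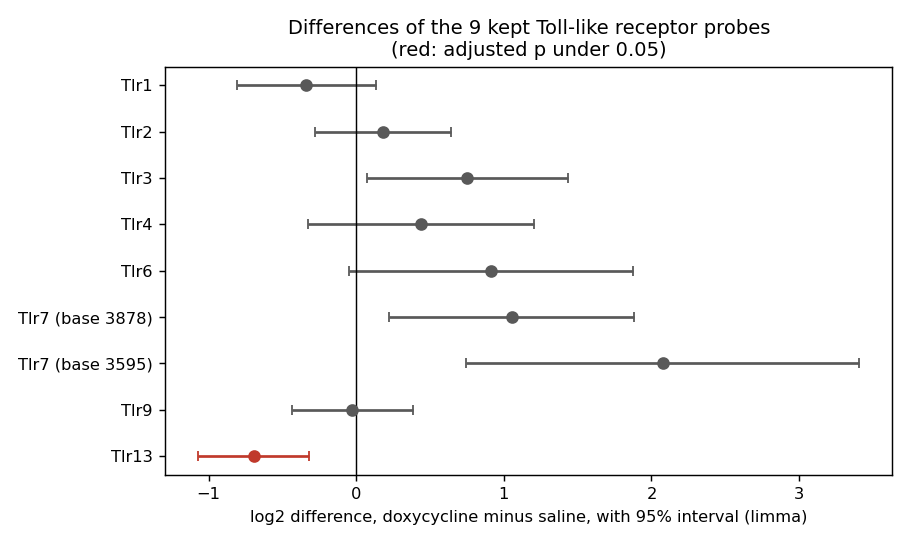
Log2 difference of each kept receptor probe, doxycycline minus saline (horizontal axis), with its 95% interval from limma over all kept probes. The interval of Tlr13 lies below 0 and those of Tlr3 and both Tlr7 probes above 0, while the adjusted p was under 0.05 for Tlr13 and at 0.0502 for the Tlr7 probe at base 3595.

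Among receptors of the cell surface, Tlr2 pairs with Tlr1 or Tlr6 to bind bacterial lipopeptides. Tlr2 read 0.47, 0.30, 0.78 and 1.01 with doxycycline and 0.63, 0.15, 0.42 and 0.64 with saline. The groups overlapped, and the log2 difference was 0.18 (SE 0.201, 95% interval -0.27 to 0.64, limma adjusted p = 0.58). This probe is spotted 10 times on each array, and the SD between its spots was 0.041 to 0.109, less than the SD of 0.32 and 0.23 between doxycycline and between saline arrays. Tlr1 read 0.50, 0.84, 0.30 and 0.44 with doxycycline and 0.53, 1.08, 0.61 and 1.21 with saline. The groups overlapped, with a log2 difference of -0.34 (SE 0.206, 95% interval -0.80 to 0.13, adjusted p = 0.296).

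Tlr6 read -2.41, -2.23, -2.24 and -1.44 with doxycycline and -2.48, -2.00, -3.60 and -3.88 with saline. Saline 3 and 4 were below the detection limit of their arrays, and saline 1 and 2 lay close to the doxycycline arrays. The log2 difference was 0.91 (SE 0.425, 95% interval -0.05 to 1.87, adjusted p = 0.179), and it was 0.01 under normexp background and 0.33 under a common floor. Tlr4, the lipopolysaccharide receptor, read -1.79, -1.35, -2.35 and -2.95 with doxycycline and -2.23, -2.63, -2.35 and -2.97 with saline. The groups overlapped, and 2 of 4 saline arrays were well above background. The log2 difference was 0.44 (SE 0.337, 95% interval -0.33 to 1.20, adjusted p = 0.415), and it turned to -0.01 with normexp background. The probe has 2 spots per array, which differed most on doxycycline 4 (intensities 20.7 and 56.9).

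Tlr5, the flagellin receptor, and Tlr8, a second single-stranded RNA receptor, did not pass the filter. Tlr5 had processed intensities of 2.09, 5.17, 3.49 and 3.79 with doxycycline and 8.28, 10.68, 39.8 and 7.10 with saline. Saline 3 was the 1 array on which it was well above background. Tlr8 had intensities of 7.04, 4.18, 2.84 and 4.50 with doxycycline and 11.7, 10.5, 6.77 and 6.89 with saline, and was not well above background on any array. With no filter both would have been called lower (Tlr5 -2.09, adjusted p = 0.00933, and Tlr8 -1.21, adjusted p = 0.0278). Probes that were never detected differed in the same direction, with medians of -7.01 to -6.68 on doxycycline and -5.20 to -4.70 on saline arrays. Their ileal levels were thus not measurable at this depth of signal, and a direction is not given.

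**Figure D3:**
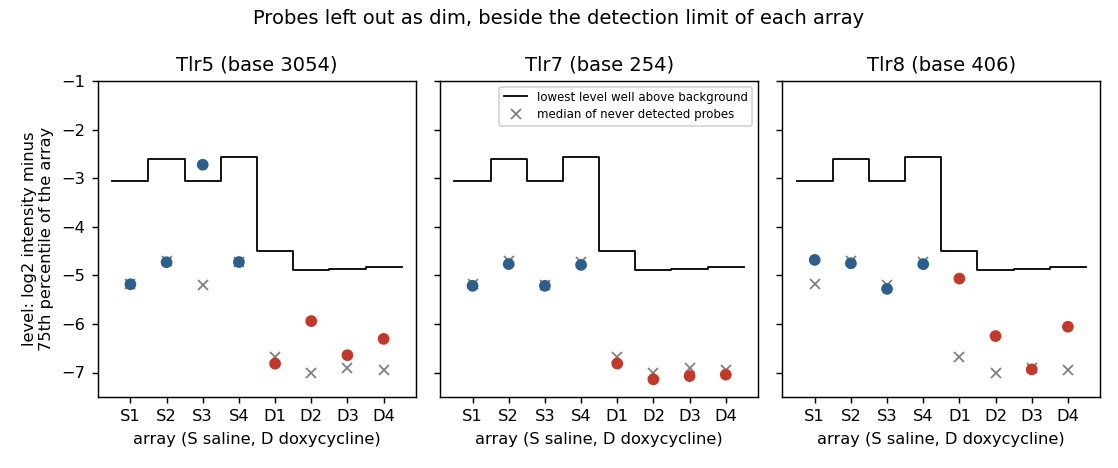
Level of the 3 receptor probes that did not pass the filter on each array (points, log2 intensity minus the array's 75th percentile), beside the lowest level well above background on that array (line) and the median of probes never detected (crosses). The points lie below the line apart from Tlr5 on saline 3, and the line and crosses lie lower on doxycycline than on saline arrays.

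Of the other mouse receptors, Tlr12, which recognises profilin of apicomplexan parasites, read 1.27, 1.69, -0.41 and 0.38 with doxycycline and 2.17, 1.95, 1.72 and 1.91 with saline. The groups did not overlap, but the doxycycline arrays were spread widely (SD 0.933), and the log2 difference of -1.20 (SE 0.408) did not pass the threshold (limma adjusted p = 0.0811). Tlr11 was detected on 2 doxycycline arrays and on 0 saline arrays and was not tested.

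The genes that serve the receptors were taken by role from 7 lists and Tlr11 and Tlr12, 86 genes in all. Of the 73 tested, 13 rose and 3 fell with doxycycline, 21.9% beside 13.8% of all genes tested, with a median log2 difference of 0.20 beside 0.02. The members of these lists include targets of many other pathways, so their counts are not a measure of receptor activity.

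Co-receptors showed 1 rise in 7 tested (14.3% called, beside 13.8% of all genes tested), with a median log2 difference of 0.71. Lbp, which hands lipopolysaccharide to CD14, read -0.72, -0.31, -0.98 and -0.91 with doxycycline and -1.37, -1.20, -1.59 and -1.64 with saline. The groups did not overlap, and it rose 1.65-fold (95% interval 1.22 to 2.22, adjusted p = 0.0386). This call was lost when any array other than saline 2 was left out (adjusted p 0.0595 without doxycycline 3 to 0.109 without saline 3). Cd14 itself read 2.04 to 2.58 against 1.15 to 1.84, a log2 difference of 0.71 just outside the threshold (SE 0.204, adjusted p = 0.0504). Ly96, which encodes MD-2, the partner of Tlr4, had a log2 difference of -0.40 (adjusted p = 0.136). The others that did not pass were Ly86 (1.05), the lipid A deacylating enzyme Aoah (0.77), the alkaline phosphatase Alpi (0.20) and the scavenger receptor Cd36 (-0.13). The last 2 changed sign between settings. Cd180 was likewise detected on 2 doxycycline arrays alone and was not tested.

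Of the 9 trafficking chaperones and endosomal proteases, Lgmn rose (11.1% called, beside 13.8% of all genes tested). This asparagine endopeptidase, which cuts Tlr9 among other substrates, read 5.79, 5.81, 5.59 and 5.75 with doxycycline and 4.43, 4.57, 4.53 and 4.55 with saline. The groups were far apart relative to their spread, a 2.32-fold rise (95% interval 1.89 to 2.85, adjusted p = 0.00089) that was called under all 18 alternatives. The cathepsins Ctsk (0.99, adjusted p = 0.0532) and Ctsl (0.56, adjusted p = 0.0626) had groups that did not overlap but missed the threshold. Ctss (0.19) and Ctsb (-0.19) did not pass either. The chaperones were Unc93b1 at 0.09, Hsp90b1, the folding factor gp96, at -0.31, Cnpy3 at -0.04 and Cnpy4 at -0.18, with adjusted p above the threshold. The sign of Cnpy3 varied with the setting. Unc93b1 read 2.82 to 3.14 with doxycycline and 2.65 to 3.32 with saline, so the chaperone that Tlr13, Tlr7, Tlr9 and Tlr3 need overlapped between groups.

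Among the adaptors, 2 of 4 tested rose (50% called, beside 13.8% of all genes tested). Myd88, the adaptor of every receptor here except Tlr3, read 3.26, 3.83, 3.39 and 3.45 with doxycycline and 2.30, 2.16, 2.30 and 2.58 with saline. The groups did not overlap, and it rose 2.21-fold (95% interval 1.68 to 2.91, adjusted p = 0.00428). Tirap, which bridges MyD88 to Tlr2 and Tlr4, read 1.30, 1.63, 1.48 and 1.44 against 0.55, 0.49, 0.53 and 0.70. It rose 1.85-fold (95% interval 1.49 to 2.30, adjusted p = 0.00472), and both were called under all 18 alternatives. Ticam1, the TRIF adaptor of Tlr3, read 0.65 to 1.66 against 1.30 to 1.82, a log2 difference of -0.48 (SE 0.235, adjusted p = 0.203). Pik3ap1 did not pass and was below detection on every saline array, so it has no direction here. Ticam2 and Sarm1 were not well above background on any array and were not tested.

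**Figure D4:**
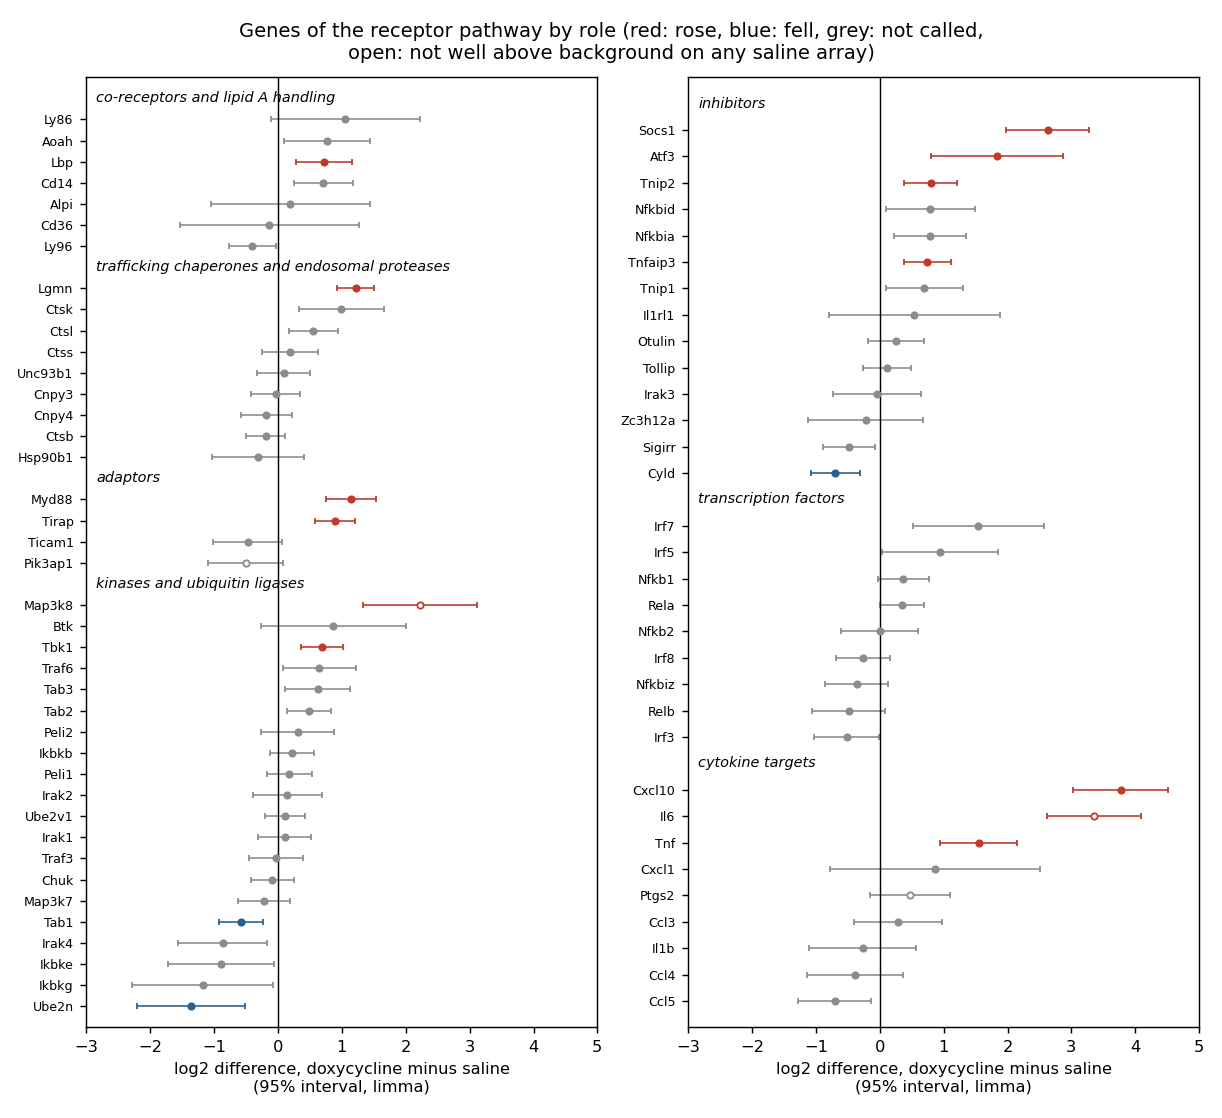
Log2 difference, doxycycline minus saline, with its 95% interval from limma (horizontal axes) for the tested genes of the 7 pathway lists, grouped by role and coloured by call. Open points are genes below detection on every saline array, whose plotted differences are not exact. Rises stand in 6 of the 7 lists, among them Cxcl10 at 3.77 and Socs1 at 2.63, while the transcription factors hold none.

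Of 20 kinases and ubiquitin ligases tested, 2 rose and 2 fell (20% called, beside 13.8% of all genes tested). Tbk1, the kinase that activates IRF3 downstream of TRIF, rose 1.61-fold (adjusted p = 0.0181). Map3k8, which links NF-kB activation to ERK, was below detection on every saline array and passed the filter through the doxycycline arrays alone. It was called higher (adjusted p = 0.00832), at least 1.82-fold when each saline array is set to its own detection limit or the probe's level where higher. The bound holds for that setting. Tab1, a subunit of the TAK1 complex, fell by 0.58 on the log2 scale (adjusted p = 0.0381) and the ubiquitin conjugase Ube2n fell by 1.36 (adjusted p = 0.0428). Leaving out doxycycline 3 or saline 3 ended the Tbk1 call (adjusted p = 0.0558 and 0.0514). Tbk1 was also not called without saline 2 and 4 together (adjusted p = 0.0501). Map3k8 was not called with normexp background (0.50) or a common floor (0.61), both smaller than its bound. Tab1 was not called without doxycycline 2, 3 or 4 or saline 1 or 3 (adjusted p 0.0787 to 0.0991). Ube2n was not called without doxycycline 3 or 4 or saline 1, 3 or 4 (adjusted p 0.0836 to 0.111), with normexp background or a common floor, or as the mean of its probes (-0.60).

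Of 14 inhibitors of the pathway tested, 4 rose and 1 fell (35.7%, beside 13.8% of all genes), with a median log2 difference of 0.62. Socs1, the suppressor of cytokine signalling that interferon also induces, read 4.64, 5.14, 4.71 and 4.62 with doxycycline and 2.11, 1.77, 1.75 and 2.98 with saline. Every doxycycline array was above every saline array, a 6.18-fold rise (95% interval 3.95 to 9.65, adjusted p = 0.00092). Atf3, a repressor of cytokine genes and a stress-response factor, rose 3.57-fold (adjusted p = 0.031). Tnip2, which binds the A20 enzyme, rose 1.74-fold (adjusted p = 0.0246) and Tnfaip3, which encodes A20, rose 1.68-fold (adjusted p = 0.0197). The deubiquitinase Cyld fell by 0.70 on the log2 scale (adjusted p = 0.0293). Apart from Socs1, these calls were each lost without single arrays. Those were doxycycline 4 or saline 3 for Tnfaip3 (adjusted p 0.0567 and 0.0609) and doxycycline 3 or 4 or saline 1 or 3 for Tnip2 (0.0646 to 0.0785). They were any doxycycline array or saline 1 for Atf3 (0.0536 to 0.0838), and doxycycline 1, 2 or 3 or saline 1, 2 or 3 for Cyld (0.0528 to 0.0887). Cyld was also not called as the mean of its probes (-0.46), nor Atf3 with a common floor (adjusted p = 0.0656).

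Of 9 transcription factors tested, 0 passed limma's threshold, while 4 had an unadjusted p under 0.05. The median log2 difference of the 9 was -0.002, and the range was from -0.52 for Irf3 (adjusted p = 0.156) to 1.54 for Irf7. The groups of Irf7 did not overlap, and it was just outside the threshold (adjusted p = 0.0531). Cytokine targets showed 3 rises in 9 tested (33.3% called, beside 13.8% of all genes tested). Cxcl10, an interferon-induced chemokine, read 5.29, 6.48, 5.04 and 5.41 with doxycycline and 2.34, 1.73, 1.44 and 1.62 with saline. The groups were far apart, a 13.7-fold rise (95% interval 8.17 to 22.8, adjusted p = 0.00047). Tnf read -1.24, -0.95, -0.24 and -0.29 with doxycycline and -2.14, -1.86, -2.56 and -2.36 with saline, well above background on 3 of 4 saline arrays. It rose 2.93-fold (95% interval 1.93 to 4.45, adjusted p = 0.00743). Il6 was below detection on every saline array and passed the filter through the doxycycline arrays alone. It was called higher (adjusted p = 0.00062), at least 2.31-fold against each saline array's own limit. With a common floor the log2 difference was 0.96, smaller than that bound, and the call was lost (adjusted p = 0.117). Of the 15 cytokine genes, 6 were not tested, and Cxcl2, Ifnb1 and Csf3 among them were not well above background on any array.

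**Figure D5:**
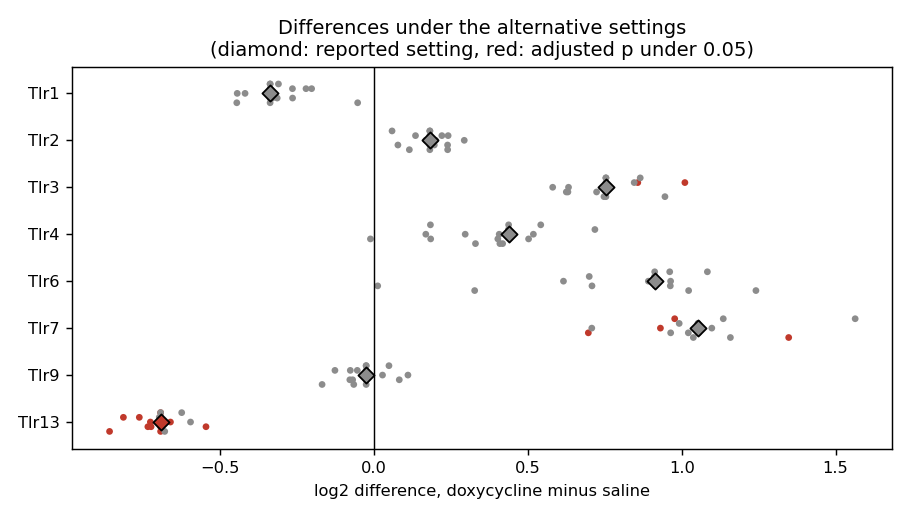
Log2 difference of each tested receptor gene, doxycycline minus saline (horizontal axis), in the reported setting (diamond) and under the alternative settings (dots), in red where the adjusted p was under 0.05. Tlr13 stays between -0.86 and -0.55 and was called in 13 of 18 alternatives, Tlr7 in 4 of 17 and Tlr3 in 2 of 18.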

How the data were processed

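Total RNA from 8 ileum samples was hybridised to 1-colour Agilent arrays after labelling of 200 ng, per the labels' protocols. The authors deposited linear spot intensity, processed with Agilent Feature Extraction (version 10.7.3.1 in the file headers). Per the file headers it is background-subtracted and detrended, and spots within the noise hold a surrogate value. The authors' deposited value table holds log2 values. Each column is the log2 of the processed intensity shifted by a constant (at least 99.77% of probes within 0.01), so scale, centring and direction are known. Its column medians were -3.77, -3.92, -3.83 and -3.81 for doxycycline 1 to 4 and -3.97, -3.70, -3.79 and -3.86 for saline 1 to 4. It served as an alternative.

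Control spots and outlier spots (169 to 259 per array) were left out, and 0 probe spots were saturated. Spots of a probe were averaged as intensities, log2 was taken and each array's 75th percentile over probes was subtracted. Probes well above background on at least 4 of 8 arrays were kept (28626 of 55681). The test was limma's (version 3.58.1, R 4.3.3, lmFit and eBayes, two-sided, Benjamini-Hochberg over 21362 genes, threshold 0.05), and single values with exact permutation tests. The fit was tested on simulated data. Precision is limited by the 4 arrays per group. Gene names come from the array's design and can be old.

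The rule for names took all receptors, the co-receptors, adaptors, chaperones and proteases, up to 5 called genes of every other list, and the 3 genes most like a called receptor. Outside this rule, Irf3 and Irf7 are named as the ends of the range of the transcription factors. Tnk1 and Hprt are named for the transgene, and Cxcl2, Ifnb1 and Csf3 as cytokine genes that were not detected. Cell type markers are named from their lists without a fixed rule. The members and lists were chosen with earlier results of these data known. Alternatives were normexp background (offset 50), quantile normalization, no filter or a filter on all 8 arrays, the mean of a gene's probes, a common floor, the deposited values, array weights, the replicate number as a block, leaving out each array, and leaving out saline 2 and 4. Protein sequences were not used here.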

Additional observations from a re-analysis of the deposited data

Results flagged for a closer look

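Of 82 groups of 4 arrays examined (the tested receptors and the named pathway genes, in each treatment), 3 held an array far from its group by Dixon's criterion. Chance gives about 1 in 20 groups. Tlr9 read 2.47 on saline 3, while the other saline arrays read 1.91 to 1.94. The protease gene Ctsk read -0.93 on saline 4, against -0.20 to -0.08 on the other saline arrays. The kinase gene Tbk1 read 0.18 on saline 4, against 0.55 to 0.58 on the others.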

How the results depend on the processing

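Over all genes, 1268 rose and 1687 fell. Array weights gave 2884 and 3367, no filter gave 11810 falls, leaving out saline 2 and 4 gave 1027 falls, and leaving out single arrays gave 648 to 1541 rises and 729 to 1870 falls. Falls made up 57.1% of calls, 86.5% with no filter (median difference of all genes -0.33) and 48.4 to 66.1% otherwise. Receptors that rose numbered 1 with normexp background and without saline 2 and 4, 2 with array weights and 0 to 1 without single arrays, and those that fell 0 to 1. Pathway genes that rose and fell numbered 24 and 12 with array weights and 9 to 16 and 0 to 4 without single arrays. Falls numbered 1 with the mean of kept probes and 0 without saline 2 and 4. Same-numbered arrays did not deviate together more than others (correlations 0.006, -0.044, 0.113 and 0.013, beside -0.25 to 0.218 for differently numbered arrays). This gave no sign that the numbers pair the samples, but 4 arrays per group cannot exclude a pairing. With the replicate block 786 genes rose and 905 fell, and receptor falls and pathway falls were both 0 (Tlr13 adjusted p = 0.0596). The block also ended the calls of Tbk1, Tnfaip3, Tnip2, Cyld, Tab1 and Ube2n (adjusted p 0.0516 to 0.1). Leaving out saline 2 and 4 ended these and those of Lbp and Atf3 (0.0501 to 0.103). Signs turned for Tlr4 (-0.012 with normexp), Tlr9 (0.082 with normexp, 0.027 with quantile normalization, 0.048 without doxycycline 4, -0.079 to 0.11 without single arrays, the highest without saline 3) and Cnpy3 (0.102 with normexp, 0.0092 with quantile normalization, 0.015 with array weights, 0.038 without doxycycline 1, and -0.116 to 0.058 without single arrays, the highest without saline 4). They also turned for Cd36 (0.038 without doxycycline 1, 0.128 without doxycycline 4, and -0.51 to 0.451 without single arrays, the highest without saline 3) and Alpi (-0.35 with array weights, -0.46 without saline 2 and 4, and -0.39 to 0.55 without single arrays, the lowest without saline 4). The cause of these changes was not tested, apart from fewer arrays where arrays were left out. With a filter on all 8 arrays Tlr4, Tlr6 and Tlr7 were not tested. Signal over background limits Tlr4, Tlr6 and Tlr7, which were below detection on some saline arrays, and Tlr5 and Tlr8, which were below it on nearly all or all arrays.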

Other observations

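Markers of other cells of the ileum were read beside the receptors, as lists with counts. Of 10 neutrophil markers, 6 were tested and 3 were called higher (50%, beside 5.94% of all genes tested). Camp (log2 difference 0.21, limma adjusted p = 0.587) and Retnlg (0.81, adjusted p = 0.464) were tested and not called. Camp was below detection on every saline array, so its difference is not exact. Ltf, the iron-binding granule protein lactoferrin, rose 7.11-fold (limma adjusted p = 0.00453), and the calprotectin subunit S100a9 rose 6.02-fold (adjusted p = 0.0253). The groups overlapped for S100a9, with doxycycline 1 (-0.49) below saline 2 (-0.37). Its partner S100a8 was below detection on every saline array and passed the filter through the doxycycline arrays alone, so its call (adjusted p = 0.0263) rests on undetected saline values. With each saline array set to its own detection limit, or the probe's level where higher, its mean was at least 3.58-fold higher. The groups overlapped for S100a8 too, with doxycycline 1 at -2.96 and saline 2 at -2.53. Cxcr2, Ngp, Mmp8 and Mpo were not measured on enough arrays to be tested. The first 3 were each detected on 1 doxycycline array and Mpo on at most 3, and all on 0 saline arrays. The summed linear level of the list was 104 to 141 with doxycycline and 100 to 106 with saline. Most of it came from 1 probe named Csf3r, which was not called (levels of 6.61 to 7.09 against 6.64 to 6.71). The array's annotation places this probe at chr19:60157892-60157951, and whether it reads Csf3r was not tested.

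Pdgfra, a fibroblast receptor, rose 2.36-fold (adjusted p = 0.0182), the 1 of 7 fibroblast and muscle markers called, and the endothelial gene Eng rose by 0.59 on the log2 scale (adjusted p = 0.0492), the 1 of 5 endothelial markers called. The shares called were 14.3% and 20%, beside 13.8% of all genes tested. Limma called 0 of 9 T cell, 0 of 5 Paneth cell and 0 of 10 enterocyte markers, with 0, 0 and 2 at an unadjusted p under 0.05. Summed levels were 27.2 to 42.5 against 18.5 to 42.6 for T cells, 447 to 730 against 583 to 696 for Paneth cells and 1243 to 1853 against 1546 to 1619 for enterocytes. Endothelial sums were 10.2 to 15.5 against 10.6 to 12.9, and fibroblast and muscle sums 178 to 209 against 166 to 272.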
